A study of Homo sapiens with 72 samples.

Results

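DU145 is a human cell line derived from a prostate carcinoma. The small RNA of LIN28A-overexpressing (LIN28A-OE) wild-type DU145 was set against that of the parental wild-type DU145 line, in which both TUT4 and TUT7 were intact. The members were chosen from the labels alone: 4 LIN28A-OE and 4 parental small RNA libraries, 8 of the 72 samples of the series. LIN28A-OE cells carried the genotype LIN28A+; TUT4+; TUT7+ and were made by lentiviral integration of a CMV-driven LIN28A cDNA followed by puromycin selection. Parental cells carried LIN28A-; TUT4+; TUT7+, and neither group had been targeted by CRISPR. The LIN28A-OE replicates were passages 1, 2, 3 and 4, and the parental replicates were 4 successive passages that ended at passage 160. Each group was therefore 1 line sampled at 4 passages, and p-values measure the spread between passages. No vector-only line was analysed here, so the effect of LIN28A cannot be told apart from that of transduction, selection and passage number. A further 16 small RNA libraries came from 2 CRISPR clones with the genotype TUT4-; TUT7-, each with LIN28A (LIN28A+) and without it (LIN28A-), and were used only to compare the LIN28A effect. As all libraries were bulk, fewer cells with a miRNA and less of it per cell cannot be told apart.

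LIN28A is an RNA-binding protein of embryonic stem cells that blocks maturation of the let-7 family, a large group of miRNAs that repress growth-promoting and pluripotency genes in differentiated tissue. It binds the terminal loop of let-7 precursors, where its zinc knuckles read the bases GGAG and its cold shock domain reads a second, more variable motif. It then recruits the terminal uridylyl transferases TUT4 and TUT7, which add a U tail to the precursor, and the tailed precursor is degraded by the exonuclease DIS3L2. TUT4 and TUT7 also add U to the 3′ ends of mature miRNAs, while other enzymes such as TENT2 add A.

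All 9 let-7 guide miRNAs, which derive from the 5p arm of the precursor, share 1 seed, the stretch from base 2 to base 8 that pairs with target mRNAs. They are printed here because the largest changes fell on them, and the capitals mark the seed. Sequences and positions are from RefSeq on GRCh38.p14, in which 572 of the 678 miRNAs tested had a mature entry of the same name.
let-7a-5p: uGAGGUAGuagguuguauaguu
let-7b-5p: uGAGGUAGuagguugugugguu
let-7c-5p: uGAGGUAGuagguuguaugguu
let-7d-5p: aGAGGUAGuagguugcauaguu
let-7e-5p: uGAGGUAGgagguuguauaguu
let-7f-5p: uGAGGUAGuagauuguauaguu
let-7g-5p: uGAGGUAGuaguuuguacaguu
let-7i-5p: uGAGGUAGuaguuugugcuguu
miR-98-5p: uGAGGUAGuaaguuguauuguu

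let-7a-5p differed from let-7c-5p, from let-7e-5p and from let-7f-5p by 1 of 22 bases each, and from let-7i-5p by 4. Counts of the nearest pairs can be exchanged by a single sequencing error or by the rule for assigning reads. let-7c-5p, the lowest in level of the members 1 base from let-7a-5p, was counted at 0.0744 to 0.0994% of let-7a-5p in the 8 libraries, and its values are uncertain for that reason.

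The precursors differed in the loop between the arms. The last 20 bases before the 3p arm are shown for the hairpins with both arms in the reference, with any GGAG in capitals, because this is the stretch that LIN28 zinc knuckles are known to bind.
let-7a-1: cacccaccacugGGAGauaa
let-7a-2: aauuacaucaagGGAGauaa
let-7a-3: ucugcccugcuaugggauaa
let-7b: uguugccccucggaagauaa
let-7c: aguuacacccugGGAGuuaa
let-7d: uuuugcccacaaGGAGguaa
let-7f-1: uuacccuguucaGGAGauaa
let-7g: ccacccgguacaGGAGauaa
let-7i: auugcccgcuguGGAGauaa
miR-98: aggccccaauuagaagauaa
The let-7e loop, gaGGAGgacacccaaGGAGauca, held the letters GGAG at 2 places. GGAG lay in each of these loops but those of let-7a-3, let-7b and miR-98. Read on the strand of the hairpin, the same 4 letters lay between the arms of 60 of the 741 hairpins in the reference that have both arms, or 8.10%.

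The 8 libraries held 6427096 to 13664133 counts assigned to miRNAs, with 8822859 to 13664133 in LIN28A-OE and 6427096 to 8872144 in parental cells (exact permutation test, p = 0.0571). miR-21-5p alone took 51.6 to 62.5% of each library. In both groups, additions at the 5′ end were found on 0.401 to 0.457% of counts in replicates 1 and 2 and on 0.327 to 0.342% in replicates 3 and 4. LIN28A-OE replicate 1 stood apart from the other LIN28A-OE libraries, with a TMM scaling factor of 1.31 against 0.827 to 0.981, and results that rest on it are given with and without it. Read duplicates could not be assessed from the files, so intervals on shares cover counting error only.

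The matched mRNA libraries of the same lines were read to check the labels. LIN28A was counted 1287, 1163, 1017 and 639 times in the LIN28A-OE libraries and 0, 0, 5 and 0 times in the parental libraries. Its share of all gene counts was 542 times the parental share (95% counting interval 232 to 1669.6), and the difference was called (log2 fold change 8.96 ± 0.47 SE, adjusted p = 8.84e-05), where 1.49% of the 13448 genes tested were called and 0.982% were higher. LIN28B, the paralog of LIN28A, had at most 3 counts in any library. DICER1, which cuts the loop from miRNA precursors, stood at 264.6, 260.1, 264.1 and 284 CPM (counts scaled to an equal library total) in LIN28A-OE and at 84.6, 133, 115 and 111 in parental cells, 2.39-fold higher (adjusted p = 0.00174, and 0.0111 without parental replicate 3, where the call is lost). TUT4 (log2 fold change 0.20, adjusted p = 0.384), TUT7 (0.51, adjusted p = 0.0731), TENT2 (0.13, adjusted p = 0.381), DIS3L2 (0.14, adjusted p = 0.435) and DROSHA (-0.01, adjusted p = 0.962) did not pass the threshold of an adjusted p under 0.01. The epithelial keratins KRT8 and KRT18, with 551 to 1283 and 359 to 699.9 CPM, marked both groups, as did EPCAM and CDH1. CDH1, which encodes E-cadherin, was higher in LIN28A-OE (log2 fold change 0.91, adjusted p = 0.0083). KLK3, DCN and PTPRC had no counts. COL1A1, a collagen gene of fibroblasts, was at 6.86 to 12 CPM in LIN28A-OE and 4.05 to 5.81 in parental cells (adjusted p = 0.0264), and PAX8, a marker of ovarian lines, stayed under 2 CPM.

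LIN28A-OE cells held far fewer let-7 guide miRNAs than parental cells, but the members fell by very different amounts. A miRNA was said to fall or rise where edgeR's quasi-likelihood test gave a Benjamini-Hochberg adjusted p under 0.01. Of the 9 members, 8 fell and none rose, against a background of 5.75% of all 678 tested miRNAs that fell and 3.69% that rose. The falls ran from 19.8-fold for let-7i-5p to 1.71-fold for let-7a-5p, and only let-7c-5p did not pass the threshold. The median log2 fold change of the 9 was -3.35, beside 0.01 over all miRNAs tested.

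Levels of single miRNAs are CPM on library totals scaled by TMM, which evens out a few very abundant miRNAs. let-7i-5p was at 424.4, 836, 689.9 and 604 CPM in LIN28A-OE replicates 1 to 4 and at 11791, 13292, 13415 and 12136 in parental replicates 1 to 4, a log2 fold change of -4.31 ± 0.20 (SE, adjusted p = 8.21e-09). let-7d-5p was at 58.4, 59.2, 73.9 and 69.7 against 1385, 1134, 1242 and 1268 (-4.27 ± 0.14, adjusted p = 6.87e-10). miR-98-5p, a let-7 family member in all but name, was at 114, 153, 163 and 125 against 2345, 2173, 2256 and 2381 (-4.04 ± 0.14, adjusted p = 1.26e-09). In these 3 members every LIN28A-OE library lay more than 10-fold below every parental library.

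let-7f-5p, the second most abundant member in parental cells, was at 1270.1, 2001, 1898 and 1691 in LIN28A-OE and at 20883, 21238, 22984 and 23042 in parental cells (-3.68 ± 0.15, adjusted p = 3.93e-09). let-7b-5p was at 171, 179, 298 and 247 against 2070.5, 2390.1, 2388 and 2307 (-3.35 ± 0.18, adjusted p = 3.44e-08). let-7g-5p was at 817, 1335, 1271 and 1082 against 9586, 10155, 10439.8 and 9697 (-3.15 ± 0.16, adjusted p = 1.39e-08). The groups were again far apart, with each of these 3 members about an order of magnitude lower in LIN28A-OE.

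The remaining members had smaller differences. let-7e-5p was at 219.8, 253, 271 and 216 against 540.5, 515, 531 and 553 (-1.16 ± 0.11, adjusted p = 1.42e-05). let-7a-5p, the most abundant member in both lines, was at 12394, 14828, 17238 and 15238 against 25431, 24274, 26323 and 26146 (-0.78 ± 0.11, adjusted p = 0.000541). let-7c-5p was at 11.3, 12, 15.8 and 15.1 against 21.2, 18.4, 19.6 and 22.8 (-0.60 ± 0.17, adjusted p = 0.0329). All 3 had groups that did not overlap, as had 23% of all miRNAs tested.

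**Figure D1:**
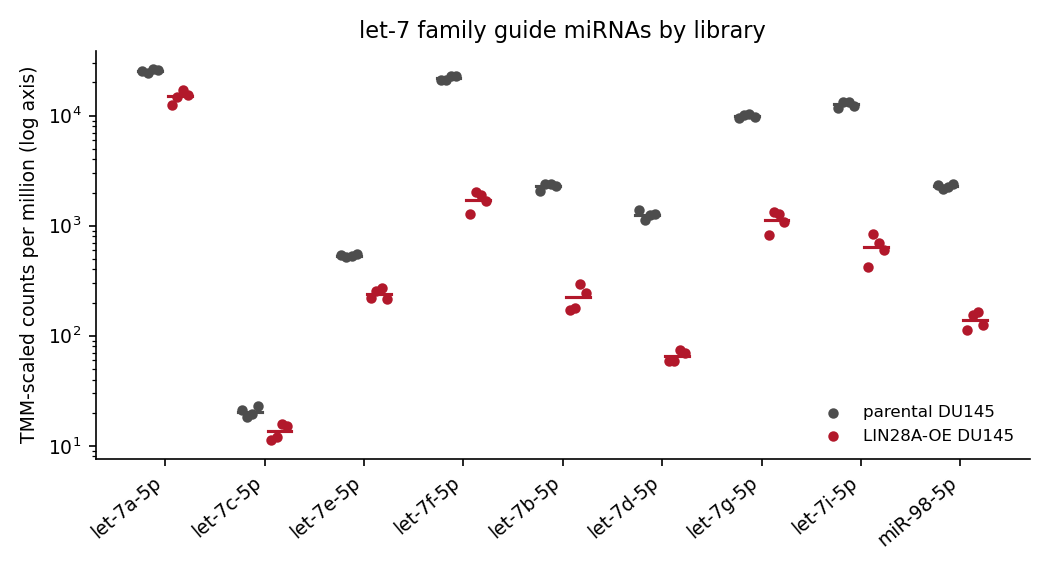
Level of each let-7 family guide miRNA in TMM-scaled CPM (log axis), with 1 point per library, parental in grey and LIN28A-OE in red, and a bar at the mean of 4. let-7i-5p, let-7d-5p and miR-98-5p dropped 16.5-fold to 19.8-fold, whereas let-7a-5p dropped 1.71-fold.

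The 9 guides were also grouped by whether the LIN28 literature gives their precursors a motif for the cold shock domain. A search for the letters UGAU between the arms found them in let-7b, let-7f-1 and let-7g but not in let-7d, let-7i or miR-98, so these letters alone do not give the literature's classes. UGAU lay between the arms of 64 of the 741 hairpins (8.64%). The 5 members of the class with the motif in all precursors, let-7b, let-7d, let-7g, let-7i and miR-98, had log2 fold changes of -4.31 to -3.15 with a median of -4.04. The 3 members of the class without it, let-7a, let-7c and let-7e, lay between -1.16 and -0.60 with a median of -0.78. let-7f-5p, with 1 precursor of each kind, lay at -3.68. The ranges of the motif classes did not meet among these guides. Of the 3p arms made from let-7a and let-7e precursors, let-7a-2-3p lay at -3.64, inside the range of the class with the motif. let-7a-3p and let-7e-3p lay at -0.59 and -1.57. let-7b and miR-98, whose loops lack the letters GGAG, fell by 10.2-fold and 16.5-fold, while let-7c and let-7e, whose loops hold them, lay at -0.60 and -1.16. The let-7c value, here and in its class, carries the uncertainty given above for a member 1 base from let-7a-5p.

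Members of 1 gene cluster changed by different amounts. On chromosome 9 the let-7a-1, let-7f-1 and let-7d hairpins lie on the plus strand at chr9:94175957-94176036, chr9:94176347-94176433 and chr9:94178834-94178920. Of the miRNAs made there, let-7f-1-3p (-4.72), let-7d-3p (-4.56) and let-7d-5p (-4.27) changed far more than let-7a-5p (-0.78). On chromosome 22 let-7a-3 and let-7b lie at chr22:46112749-46112822 and chr22:46113686-46113768, and let-7b-5p (-3.35) again stood below let-7a-5p, which is also made from a hairpin on chromosome 11. miR-98 and let-7f-2 lie together on the minus strand of the X chromosome, at chrX:53556223-53556341 and chrX:53557192-53557274, and miR-98-5p (-4.04), let-7f-5p (-3.68) and let-7f-2-3p (-3.10) all fell strongly.

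The 3p arms, which are usually the discarded passenger strands, fell as well. Of 11 let-7 3p miRNAs, 10 passed the filter on low counts and let-7c-3p did not, and the 10 tested fell, with a median log2 fold change of -3.68. The filter was met by their parental levels in several cases, so the count of 10 is a description. let-7d-3p was at 15.9, 11.2, 15.3 and 11.3 CPM in LIN28A-OE and 303, 367.4, 354 and 248 in parental cells (-4.56 ± 0.19). let-7f-1-3p was at 1.23, 1.15, 1.23 and 1.27 against 25.7, 36.2, 39.1 and 28.8 (-4.72 ± 0.22), the largest fall among these miRNAs. let-7i-3p (-4.28), miR-98-3p (-4.15) and let-7b-3p (-3.72) were close to their 5p partners.

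The 3p arms also told the 3 let-7a hairpins apart in part. let-7a-2-3p, made from the hairpin at chr11:122146522-122146593 alone, was at 1.08, 1.15, 0.613 and 0.809 CPM in LIN28A-OE and 13.9, 11.5, 10.5 and 10.9 in parental cells, 12.5-fold lower (-3.64 ± 0.25, adjusted p = 4.39e-07). let-7a-3p, made from let-7a-1 and let-7a-3, was at 238, 282, 273 and 245 against 340.3, 442, 417 and 358 (-0.59 ± 0.12, adjusted p = 0.00637), and its call was lost under 9 of 20 alternatives. let-7a-2-3p rested on 6 to 14 counts per LIN28A-OE library and 83 to 100 per parental library. Its hairpin lies near that of miR-100, at chr11:122152229-122152308 on the same strand, and miR-100-5p (-1.36) and miR-100-3p (-1.76) fell as well. Whether the locus changed as a whole was not tested. let-7e-3p fell 2.98-fold (-1.57 ± 0.20), near let-7e-5p. let-7g-3p (-3.29 ± 0.48) rested on 0 to 6 counts in the LIN28A-OE libraries.

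Summed over the 9 guides, let-7 made up 2.03, 1.62, 2.05 and 1.89% of miRNA counts in LIN28A-OE and 8.30, 7.26, 7.33 and 7.84% in parental cells. The means of 1.90 ± 0.195% and 7.68 ± 0.485% (SD, n = 4 each) differed by 4.05-fold, and the groups did not overlap (exact two-sided permutation test over 70 splits, p = 0.0286, the smallest that 4 against 4 allows). Without let-7a-5p the sum was 0.409 ± 0.0190% against 5.12 ± 0.259%, a 12.5-fold difference. The makeup of the family shifted with it. let-7a-5p formed 78.3% of let-7 counts in LIN28A-OE and 33.4% in parental cells, while let-7f-5p went from 28.8% in parental cells to 8.95%, let-7i-5p from 16.5 to 3.32%, and let-7g-5p from 13 to 5.87%.

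Over all 678 miRNAs tested, 39 fell and 25 rose at an adjusted p under 0.01, together 9.44%, and 200 had an unadjusted p under 0.05. Of the 39 that fell, 18 were of the let-7 family and 21 were not. None of the 25 that rose was a let-7. Outside the family the largest called fall was 5.5-fold and the largest called rise 3.22-fold, both smaller than the falls of let-7b, d, f, g, i and miR-98. The number that rose varied with single libraries. It was 40 without LIN28A-OE replicate 1, 15 without LIN28A-OE replicate 3 or 4, 11 without parental replicate 1 or 2, and 13 without parental replicate 3. Within replicates 1 and 2 alone 1 rose and 17 fell, and within replicates 3 and 4 alone 36 rose and 59 fell.

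**Figure D2:**
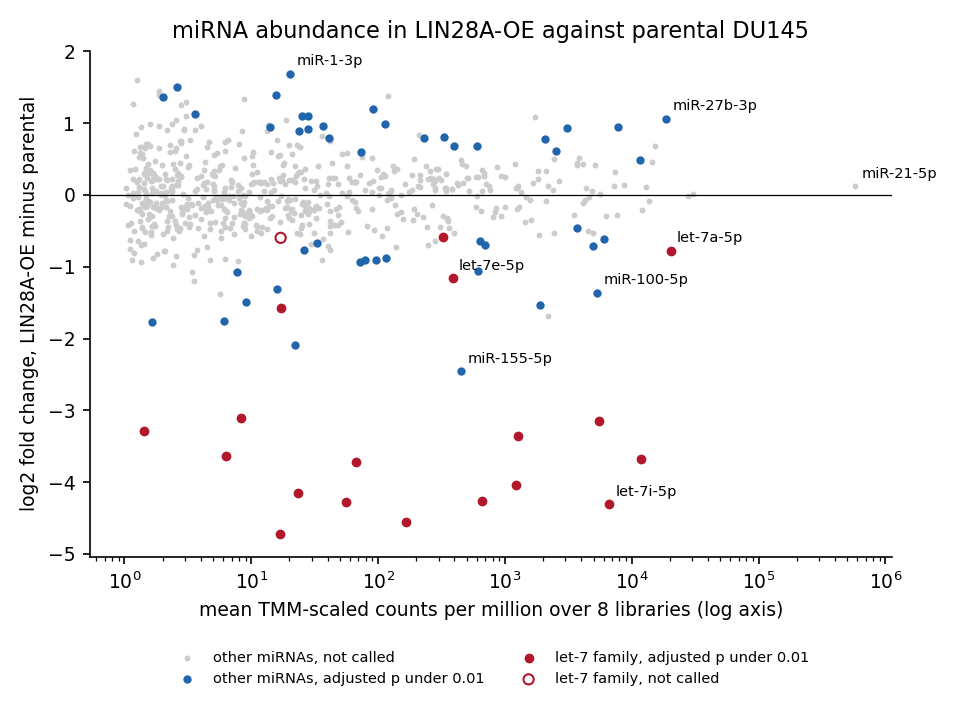
Each of the 678 miRNAs tested, by mean level over the 8 libraries (TMM-scaled CPM, log axis) and log2 fold change of LIN28A-OE over parental; red marks the let-7 family (open where not called), blue other miRNAs with an adjusted p under 0.01, grey the rest. The let-7 family holds all points below -3, and miR-155-5p at -2.46 is the lowest of the others.

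miR-155-5p, an oncogenic miRNA best known from immune cells, was at 184, 141.4, 116 and 113 CPM in LIN28A-OE and at 1059, 722, 675 and 599 in parental cells, 5.5-fold lower (-2.46 ± 0.21, adjusted p = 3.5e-06). It was called in the same direction under all 20 alternatives. miR-146a-5p, another miRNA of the inflammatory response, stood at 2.31 to 7.26 against 12.3 to 14.2 (-1.49 ± 0.28). Both had groups that did not overlap, and both were named after their values were seen.

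The let-7 cluster partners miR-99, miR-100 and miR-125, which share primary transcripts with let-7 hairpins, did not move as 1 group. Of 11 such miRNAs 9 were tested, 4 of them fell, 1 rose, and the median log2 fold change was -0.22. The partners on chromosome 11 fell. miR-100-5p was at 2586, 3545, 2894 and 2876 in LIN28A-OE and 8355, 8124, 7099 and 7009 in parental cells (-1.36 ± 0.12, adjusted p = 6.16e-06), and miR-125b-5p was at 948, 995, 1046 and 935 against 3016, 3175, 2717 and 2415 (-1.53 ± 0.12, adjusted p = 1e-06). miR-100-3p (-1.76) and miR-125b-1-3p (-2.09), which is made from the chromosome 11 copy of miR-125b only, fell too and were named after their values were seen. On chromosome 19, where miR-99b, let-7e and miR-125a lie within chr19:51692612-51693339, miR-99b-5p went the other way from its neighbour let-7e. It was at 2087, 3015, 2710.4 and 2623 in LIN28A-OE and 1443, 1494, 1468 and 1661 in parental cells (0.78 ± 0.12, adjusted p = 0.000979). miR-125a-5p had a log2 fold change of 0.44 (adjusted p = 0.0329) and miR-99a-5p, next to let-7c on chromosome 21, one of -0.04 (adjusted p = 0.919).

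Among the 25 that rose, the largest was miR-1-3p, a muscle miRNA of low level here, at 26.3, 43.4, 25.4 and 28.6 CPM in LIN28A-OE and 9.30, 9.07, 10.3 and 9.69 in parental cells (1.69 ± 0.20, adjusted p = 8.74e-05). miR-326 (1.39), both arms of miR-653 (1.11 for 3p and 0.96 for 5p), miR-628-5p (1.10), miR-301a-3p (0.99) and miR-7706 (0.94) rose from means of 8.67 to 75.2 in parental cells. Of 20 alternatives, the call was lost under 10 for miR-7706 (each parental library left out in turn among them), 9 for miR-653-5p, 5 for miR-301a-3p, 4 for miR-653-3p, 3 for miR-326 and 1 for miR-628-5p. The abundant miRNAs among the 10 largest rises were miR-27b-3p, miR-23b-3p and miR-181a-5p. miR-27b-3p was at 17796, 29358, 28597 and 25615 against 8932, 12594, 13268 and 13770.3 (1.06 ± 0.18, adjusted p = 0.00132). miR-23b-3p was at 8748, 9569, 11890.4 and 10638 against 4678, 5499.6, 5476 and 5520.3 (0.95 ± 0.12, adjusted p = 0.000163). miR-181a-5p was at 3336, 3524, 4925 and 4314 against 1719, 2376, 2201 and 2109.6 (0.94 ± 0.15, adjusted p = 0.000936). miR-181b-5p (0.61) and miR-103a-3p (0.49, at 12694 to 14792 against 9522 to 9775) rose by less and were named after their values were seen, and the miR-103a-3p call was lost under 9 of 20 alternatives, each parental library left out in turn among them.

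The near-identical paralogs of miR-23b and miR-27b on chromosome 19 did not pass the threshold. The mature sequences differ only near the 3′ end and share their seeds, in capitals.
miR-23a-3p: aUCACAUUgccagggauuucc
miR-23b-3p: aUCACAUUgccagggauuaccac
miR-27a-3p: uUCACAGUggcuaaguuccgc
miR-27b-3p: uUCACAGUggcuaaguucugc
miR-23b and miR-27b lie at chr9:95085208-95085304 and chr9:95085445-95085541, and miR-23a and miR-27a at chr19:13836587-13836659 and chr19:13836440-13836517. miR-23a-3p had a log2 fold change of 0.01 (adjusted p = 0.941) with 28293 to 34020.4 CPM in LIN28A-OE, and miR-27a-3p one of 0.11 (adjusted p = 0.647). miR-24-3p, which both clusters make, was at 13719.8 to 25936 against 10024 to 12487 and did not pass (0.68, adjusted p = 0.0162). Of the 11 miRNAs of both clusters 2 rose, none fell, and the median was 0.28. Reads shared between such paralogs are an uncertainty of these values.

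The other families were read against the 5.75% of all miRNAs that fell and the 3.69% that rose. Of the miR-200 family, miRNAs of epithelial identity, 3 of 9 fell and none rose, with a median of -0.71 and all 9 log2 fold changes between -0.93 and -0.08. The 3 were miR-200b-3p and the less abundant arms miR-200a-5p and miR-200b-5p, at means of 72.2 and 78.6 CPM. miR-200b-3p was at 3467, 4051, 3826 and 3596 against 6483, 6245, 5956 and 5672 (-0.71 ± 0.10, adjusted p = 0.000427), and miR-200a-3p (-0.55, adjusted p = 0.0232), miR-429 (-0.38, adjusted p = 0.03) and miR-200c-3p (-0.27, adjusted p = 0.349) did not pass. Of miR-221 and miR-222, oncogenic miRNAs of a cluster on the X chromosome, only miR-222-3p of 4 fell (-0.61, adjusted p = 0.00284, a call lost under 6 of 20 alternatives), with miR-221-3p at -0.50 (adjusted p = 0.0161). Of the miR-15/16 family of cell cycle repressors, 2 of 13 fell and none rose (median -0.29). miR-16-5p and miR-15b-5p lay at 0.13 and -0.06, and the 2 that fell were the 3p arms miR-424-3p, at 419, 376, 378 and 401 against 632, 901, 1039 and 722 (-1.06 ± 0.15), and miR-16-2-3p (-0.64).

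In the growth-promoting miR-17 to miR-92a cluster and its paralogs 1 of 20 fell, miR-18a-3p, and none rose (median -0.30). Its most abundant members miR-92a-3p (-0.21, adjusted p = 0.188), miR-93-5p (0.32, adjusted p = 0.045), miR-25-3p (0.10, adjusted p = 0.593) and miR-106b-5p (0.42, adjusted p = 0.0186) did not pass. The p53-linked miR-34 family (6 tested, median 0.14) and the miR-29 family (7 tested, median 0.09) had no call. miR-34a-5p was nearest, at 191, 264, 329 and 298 against 109.8, 139, 147 and 209.5 (0.84, adjusted p = 0.0161). Of 11 miR-30 miRNAs 1 fell, miR-30c-2-3p (median -0.11), and the abundant miR-30d-5p lay at -0.08. Among the miR-302 and miR-371 family of embryonic stem cells 2 of 16 miRNAs passed the filter, with at most 3.8 CPM, and neither was called. No call was made for miR-21 (median 0.02), miR-31 (median -0.36) or the hypoxia miRNA miR-210 (median -0.81), each with 2 arms tested. miR-21-5p itself was at 405425, 756469, 636279 and 608451 against 460266, 575412, 635387 and 547250.0 (0.12 ± 0.17, adjusted p = 0.686).

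GGAG in the loop was also looked at outside let-7. Of the 27 tested miRNAs from other hairpins with GGAG between the arms, 2 fell and none rose, beside 5.75 and 3.69% of all miRNAs tested, with a median log2 fold change of 0.10. Both that fell were arms of miR-200b. Of miR-107, miR-143-3p and miR-200c-3p, which are named in the LIN28 literature for such loops, none was called, and the log2 fold changes were 0.26, 0.75 and -0.27.

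The next comparison asked whether the LIN28A effect was the same where TUT4 and TUT7 were not intact. The difference between the LIN28A effect in wild-type cells and its mean over 2 TUT4/7 mutant clones was tested across 842 miRNAs in all 24 DU145 libraries. It was called for 44, or 5.23%, of which 26 (3.09%) were more negative and 18 (2.14%) more positive in wild-type cells. Within the mutants, 7.72% of the 842 were higher and 7.6% lower with LIN28A. Among the let-7 family, 7 of 9 guides and 9 of 10 3p miRNAs were called, all more negative in wild-type cells. let-7b-5p and let-7g-5p, which fell 10.2-fold and 8.85-fold in wild-type cells, had log2 fold changes of -0.26 and -0.33 in the mutants. let-7a-5p lay at 0.07 and let-7d-5p at -0.68. let-7f-5p (-1.02), let-7i-5p (-1.05) and miR-98-5p (-2.14) kept the larger falls in the mutants, and the difference was -2.62 ± 0.13, -3.23 ± 0.16 and -1.85 ± 0.15 for these 3.

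For 3 of the 19 let-7 miRNAs tested the difference did not pass. let-7e-5p had -0.74 in the mutants and a difference of -0.37 ± 0.16 (adjusted p = 0.166), and let-7c-5p a difference of -0.37 ± 0.21 (adjusted p = 0.276). let-7a-2-3p fell in the mutants too, with a log2 fold change of -4.20, a difference of 0.60 ± 0.31 (adjusted p = 0.247) and clones at -2.84 and -5.56. LIN28A mRNA was not equal across these lines. It was at 64.8 to 74.7 CPM in wild-type LIN28A-OE cells, 325 to 406 in LIN28A-OE clone 1 and 229 to 320.2 in LIN28A-OE clone 2, so the let-7 difference went with a lower LIN28A level in wild-type cells. DICER1 mRNA was higher with LIN28A in the mutants as well, at 138 to 171 and 183 to 198 against 60.9 to 105 and 93.5 to 139 CPM, and its part in the miRNA changes was not tested.

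The summed let-7 share in the mutants was 2.92 to 6.16% with LIN28A and 4.78 to 5.4% without it in clone 1, and 3.82 to 5.11% against 4.96 to 6.28% in clone 2. These ranges lay between the 1.62 to 2.05% and 7.26 to 8.30% of the wild-type lines. The upper end in clone 1 came from LIN28A-OE replicate 1 of that clone, which stood apart from its group. Without it the difference was called as more negative in wild-type cells for 32 miRNAs and more positive for 15, in place of 26 and 18. Outside let-7, miR-155-5p had a log2 fold change of -1.28 in the mutants (difference -1.12 ± 0.21, adjusted p = 0.000587). miR-100-5p had -1.31 in the mutants (difference -0.01 ± 0.16, adjusted p = 0.975) and miR-125b-5p -1.35 (difference -0.13 ± 0.15, adjusted p = 0.661). The clones were unlike each other here, at -0.52 and -2.09 for miR-100-5p and at -0.39 and -2.31 for miR-125b-5p. miR-181a-5p (0.09), miR-628-5p (0.11), miR-653-3p (0.10) and miR-27b-3p (0.35) had mutant values below their wild-type rises, and the difference was called for all 4. For miR-27b-3p the call was lost under 3 of 5 alternatives: with either clone alone, and without LIN28A-OE replicate 1 of clone 1. The calls for miR-181a-5p and miR-155-5p were lost with clone 1 only.

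**Figure D3:**
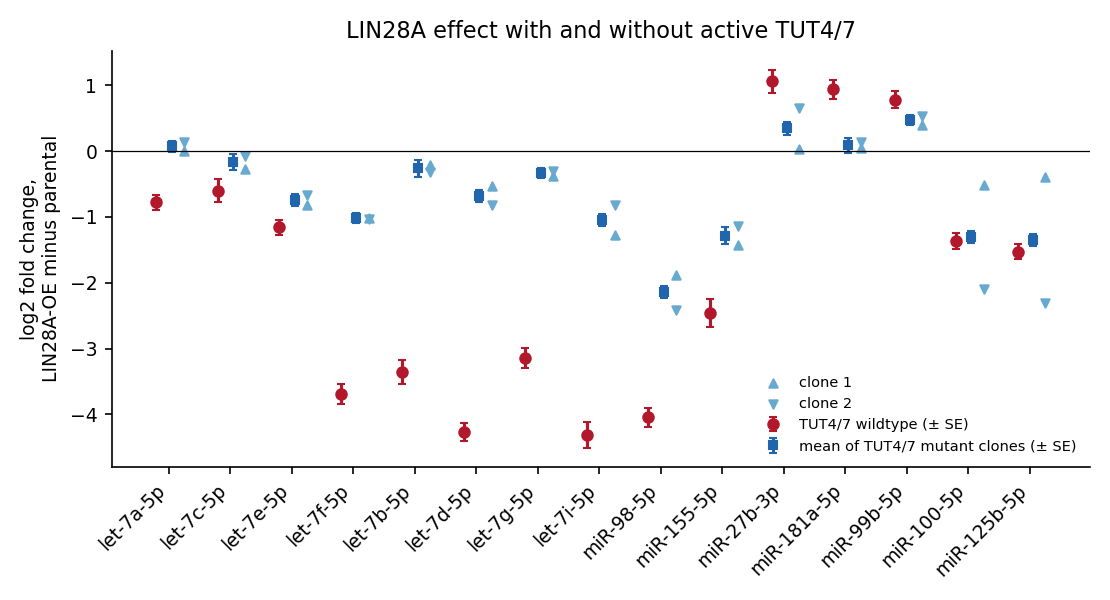
Log2 fold change of LIN28A-OE over parental in TUT4/7 wild-type cells (red circles, ± SE) and as the mean of the 2 TUT4/7 mutant clones (blue squares, ± SE), with clone 1 as an upward and clone 2 as a downward light blue triangle. let-7b-5p lies at -3.35 in wild-type cells and -0.26 in the mutants, while miR-100-5p lies at -1.36 and -1.31.

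The last question was whether the tails of mature miRNAs, to which TUT4 and TUT7 add U, differed with LIN28A. Untemplated bases at the 3′ end were found on 10.2 to 12.8% of counts in LIN28A-OE and 10.7 to 11.7% in parental cells. U tails of any length were on 2.02, 1.71, 2.02 and 1.91% of counts in LIN28A-OE and on 1.94, 1.97, 1.77 and 1.80% in parental cells, a difference of 0.0453 points (exact permutation test, p = 0.686). A tails were on 9.07, 7.17, 7.10 and 7.29% against 8.18, 7.24, 7.65 and 7.82% (exact permutation test, p = 0.943). The groups overlapped in both classes, and LIN28A-OE replicate 1 carried the most A tails of all 8 libraries. Without it the A difference was -0.538 points and that of any tail -0.648 points, against -0.0659 and -0.0581 with it.

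Of 18 tail classes and subsets tested together, the smallest adjusted p was 0.171. As 4 against 4 cannot go below an unadjusted p of 0.0286, no class could have passed a threshold of 0.01, and these tests say nothing of whether tails stayed alike. 5p-arm miRNAs carried U on 0.425 to 0.492% of counts in LIN28A-OE and 0.471 to 0.534% in parental cells, and 3p-arm miRNAs on 6.34 to 7.51% against 7.05 to 7.52%, so that U tails were far commoner on 3p miRNAs in both groups. The TUT4/7 mutant lines carried U on 0.0876 to 0.274% of counts, with and without LIN28A. C tails were on 0.241 to 0.316% against 0.325 to 0.479% (exact permutation test, p = 0.0286, adjusted p = 0.171). Among miR-21-5p counts alone they were on 0.347 to 0.467% against 0.506 to 0.747%, and among all other miRNAs on 0.0868 to 0.100% against 0.101 to 0.107%.

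As miR-21-5p held at least 51.6% of counts in each library, the shares were also taken without it. Any tail was then found on 12.5 to 13.8% of counts in LIN28A-OE and 11.6 to 12.2% in parental cells, 0.837 points higher (exact permutation test, p = 0.0286, the smallest possible). With each of 440 miRNAs weighted equally the shares were 20.8 to 21.4% against 20.1 to 20.8%, 0.651 points higher (exact permutation test, p = 0.0286). Both differ in direction from the share over all counts. U tails without miR-21-5p were on 4.22, 4.42, 4.88 and 4.62% of counts in LIN28A-OE and 3.94, 4.33, 4.15 and 3.94% in parental cells, 0.444 points higher with overlap (exact permutation test, p = 0.0571). With equal weights U was 0.128 points lower (exact permutation test, p = 0.629), so the direction for U rests on the weighting.

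**Figure D4:**
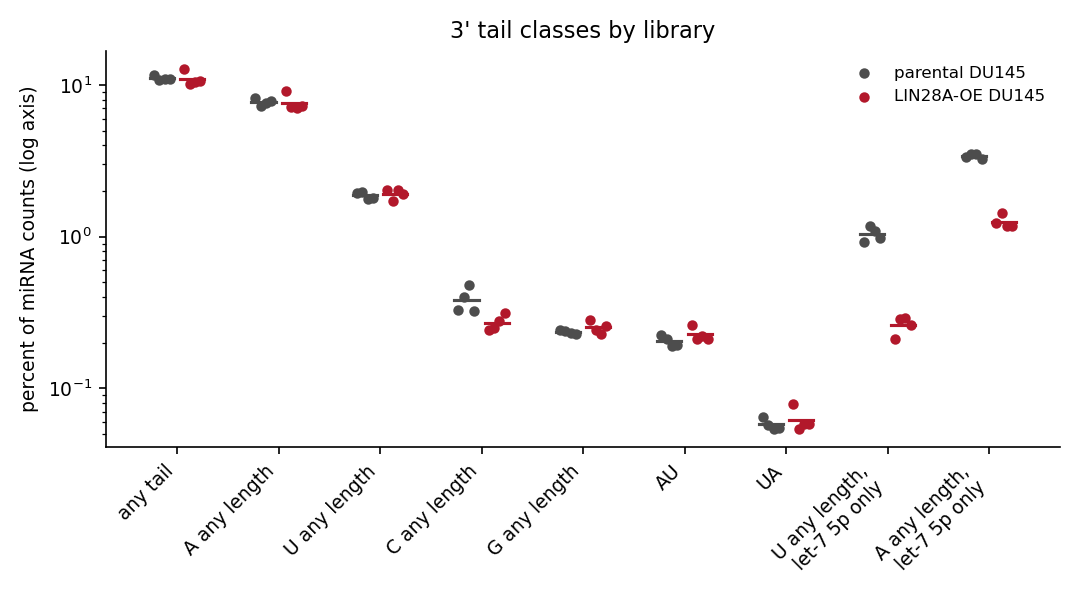
Share of miRNA counts with each class of 3′ tail (percent, log axis), with 1 point per library and a bar at the mean of 4, parental in grey and LIN28A-OE in red; the last pair of classes is over let-7 guides only. U tails over all miRNAs overlap, at 1.71 to 2.02% and 1.77 to 1.97%, while those over the pooled let-7 guides lie at 0.213 to 0.291% and 0.926 to 1.18%.

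Pooled over the 9 let-7 guides, U tails were on 0.213, 0.286, 0.291 and 0.263% of counts in LIN28A-OE and on 0.926, 1.18, 1.08 and 0.979% in parental cells (exact permutation test, p = 0.0286, adjusted p = 0.171). A tails were on 1.17 to 1.44% against 3.27 to 3.51%. let-7a-5p, which formed 78.3% of LIN28A-OE and 33.4% of parental let-7 counts, carried U on 0.00248 to 0.00759% of its counts in the 8 libraries. This low share is not a measure of U tailing, because the base after let-7a-5p is U in each of its hairpins. A single added U there cannot be told from the hairpin sequence. The next base is also U for let-7b, let-7c, let-7d, let-7f-2 and let-7g, but G for let-7e, let-7f-1, let-7i and miR-98. As let-7f-5p is made from let-7f-1 and let-7f-2, it shares this limit in part. The pooled U shares carry this limit at any makeup. With each member given its mean parental share of the let-7 counts, U was at 1.04 to 1.32% in LIN28A-OE and 0.954 to 1.11% in parental cells, 0.123 points higher (exact permutation test, p = 0.229). A was then at 3.74 to 4.22% against 3.33 to 3.45%, 0.579 points higher (exact permutation test, p = 0.0286).

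Among single let-7 guides no U or A tail share passed the threshold. let-7i-5p carried U on 5.45, 5.36, 6.96 and 6.72% of counts in LIN28A-OE and 5.03, 5.88, 5.68 and 5.47% in parental cells (adjusted p = 0.613). It carried A on 11.7, 12.6, 11.6 and 12.1% against 9.93, 9.71, 10.2 and 10.1%, with groups that did not overlap (adjusted p = 0.331). let-7b-5p, the guide with the most A tails, had them on 18.6 to 24.2% against 19.7 to 21.7%, and let-7g-5p on 7.75 to 9.93% against 7.30 to 7.46% (adjusted p = 0.446). let-7f-5p carried A on 0.0700 to 0.155% against 0.0477 to 0.0623% (adjusted p = 0.0432). miR-98-5p carried U on 2.31 to 3.63% against 2.54 to 2.89%.

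Several let-7 3p miRNAs were tailed on most of their counts in both lines. let-7f-1-3p carried U on 64.3, 67.5, 64.6 and 67.7% of its 185 to 319 counts in parental libraries. In LIN28A-OE it had 11 to 16 counts per library, with U on 63.6 to 81.2%, and the Wilson 95% interval of replicate 4 ran from 35.4 to 84.8%. miR-98-3p carried U on 60.5 to 81.8% in LIN28A-OE and 71.7 to 75.3% in parental cells, and let-7b-3p on 52.6 to 55.6% against 54.2 to 62.7%. At these counts, changes in U tailing of the 3p arms by a few points were not detectable. The base after the mature sequence is U in the hairpins of let-7f-1-3p, miR-98-3p and let-7b-3p, but C after let-7a-3p in its hairpins. The limit given above for a single added U therefore holds for let-7f-1-3p, miR-98-3p and let-7b-3p. Summed over the 3p arms, U was on 2.90 to 3.62% against 12.4 to 14.1%, and let-7a-3p, which carried U on 0.262 to 0.530% of its counts, formed 84.4 to 86.5% of that sum in LIN28A-OE and 35.1 to 38.4% in parental cells.

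Across the 421 miRNAs with a mean of at least 50 counts, the share with a U tail rose for 1 (0.238%) and fell for 5 (1.19%) at an adjusted p under 0.01, together 1.43%. At an unadjusted p under 0.05, 38 rose and 39 fell. limma on log2 odds called none. Without LIN28A-OE replicate 1 the share rose for 17 and fell for 13, replicates 1 and 2 alone gave no call, and replicates 3 and 4 alone gave 17 and 7. The median log2 odds ratio was 0.01 over all 421, 0.30 over the let-7 guides and -0.15 over the let-7 3p miRNAs.

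The 5 that fell were 3p miRNAs. miR-23b-3p carried U on 18.3, 21.0, 23 and 21.5% of counts in LIN28A-OE and on 27.8, 30.7, 30.3 and 29% in parental cells (log2 odds ratio -0.66 ± 0.12, adjusted p = 0.000211). miR-148b-3p carried it on 29.5, 27.6, 30.3 and 28.9% against 36.5, 40.1, 37.6 and 36.9% (-0.57 ± 0.12, adjusted p = 0.00283). miR-200a-3p, of the epithelial miR-200 family, carried it on 5.06, 6.14, 4.95 and 5.24% against 8.13, 8.34, 8.0 and 9.47% (-0.71 ± 0.13, adjusted p = 0.000211). None of these 3 overlapped between groups, as was so for 9.5% of the miRNAs tested. miR-24-3p carried U on 0.0222 to 0.0429% against 0.0392 to 0.0610% (adjusted p = 0.00768), with overlap, and its call was lost under 9 of 16 alternatives, as was that of miR-148b-3p under 6. let-7e-3p was the fifth, with U on 12 of 112, 18 of 104, 3 of 89 and 11 of 67 counts in LIN28A-OE, or 10.7, 17.3, 3.37 and 16.4%, and on 25.5 to 30.9% in parental cells (-1.54 ± 0.37, adjusted p = 0.00953), a call lost under 9 of 15 alternatives.

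miR-23b-3p rose in level while its U share fell, and its U-tailed counts formed 11.1% of all U-tailed counts in LIN28A-OE and 8.36% in parental cells. miR-23a-3p, with the same seed, formed the largest part in both, 15.8% and 18.6%, and carried U on 9.32 to 10.1% against 10.5 to 11.9% of its counts (adjusted p = 0.115). The miRNA whose U share rose was miR-4454, on the minus strand at chr4:163093607-163093626, with the sequence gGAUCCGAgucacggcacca. It carried U on 10.2, 14.5, 19.9 and 17.2% of counts against 2.58, 6.69, 5.97 and 6.86% (1.52 ± 0.24, adjusted p = 3.81e-05), and its level of 60.2 to 381 against 21.5 to 111 CPM overlapped. Whether the reads assigned to miR-4454 came from this locus was not tested.

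**Figure D5:**
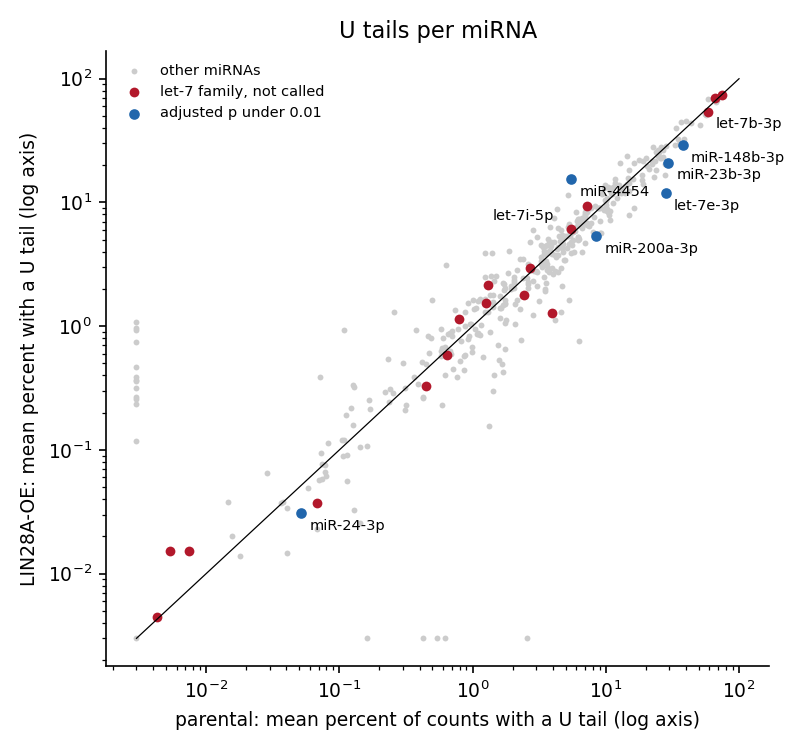
Mean share of counts with a U tail in parental (x) and LIN28A-OE (y) libraries for the 421 miRNAs tested (percent, log axes), with the line of equality, blue for an adjusted p under 0.01 and red for other let-7 miRNAs; means under 0.003% are drawn at 0.003%, which applies to 19 miRNAs. miR-23b-3p, miR-148b-3p and miR-200a-3p lie below the line and miR-4454 above it, while let-7i-5p and let-7b-3p lie near it.

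A tails changed on 2 of 437 miRNAs tested (0.458%), both higher in LIN28A-OE, and none fell by edgeR. At an unadjusted p under 0.05, 29 rose and 10 fell, and limma called none in either direction. miR-4454 carried A on 5.11, 5.77, 10.1 and 8.08% of counts against 0, 1.52, 0.994 and 2.17% (2.61 ± 0.35, adjusted p = 0.00024). miR-424-3p, which also fell in level, carried A on 4.46, 4.92, 4.43 and 3.77% against 2.44, 2.07, 2.45 and 3.06% (0.85 ± 0.14, adjusted p = 0.00211). The groups did not overlap for either, as was so for 6.64% of the 437. The median log2 odds ratio for A was 0.26 over the let-7 guides and 0.10 over all miRNAs tested.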

How the data were processed

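The deposited small RNA files hold read counts per miRNA and modification. The authors made them from NEXTflex libraries with 4 random bases at each read end, trimmed with cutadapt and read with Chimira. The random bases serve as molecular identifiers for PCR duplicates per the study's methods, and whether these counts were collapsed by them is not given in the sources used here. Counts were summed per miRNA, and 3′ tails were the 3p modifications by base. A deposited miRDeep2 count table (hg38) served as an alternative, and 64 of its per-sample columns were not used. Its column for LIN28A-OE replicate 2 matched a mutant library's file better than its own, so the table was also run without it. The authors' mRNA gene counts (Trimmomatic 0.39, HISAT2 2.1.0 and HTSeq in the submitters' notes) were read without lines naming no gene, 22.7 to 26.3% of counts.

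Abundance was tested with edgeR 4.0.16 in R 4.3.3 (quasi-likelihood, TMM, filterByExpr, adjusted p under 0.01) on 678 of 1968 miRNAs in 8 libraries, and the genotype difference on 842 in 24. Tailed against untailed counts were tested with a term per library for miRNAs with a mean of at least 50 counts. Shares by library were compared by two-sided exact permutation tests in Python 3.11.15. Scripts were tested on simulated data, and DESeq2 1.42.0 and limma 3.58.1 were alternatives. Named miRNAs were the let-7 family, the 10 largest called rises and falls with a mean of at least 10 CPM and no overlap, the 4 most abundant of each list and the 10 largest called tail differences in each direction. The samples, lists and tests were chosen with earlier results of these data known. Alternatives with replicates 1 and 2 or 3 and 4 alone, without the doubtful column, without 1 mutant library and at the parental makeup of let-7 were chosen after seeing the data.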

Additional observations from a re-analysis of the deposited data

Results flagged for a closer look

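The LIN28A effect differed between TUT4/7 wild-type and mutant DU145 cells, by a test of the difference itself with edgeR and an adjusted p under 0.01, for 20 of the named miRNAs. The gap in passage number between lines with and without LIN28A differed with genotype too. Among let-7 guides the wild-type minus mutant difference on the log2 scale was -0.80 for let-7a-5p, -3.03 for let-7b-5p, -3.53 for let-7d-5p, -2.62 for let-7f-5p, -2.77 for let-7g-5p, -3.23 for let-7i-5p and -1.85 for miR-98-5p. Among the 3p arms it was -0.86 for let-7a-3p, -3.67 for let-7b-3p, -4.76 for let-7d-3p, -0.89 for let-7e-3p, -3.72 for let-7f-1-3p, -2.78 for let-7f-2-3p, -2.36 for let-7g-3p, -3.46 for let-7i-3p and -2.46 for miR-98-3p. It was positive for miR-653-3p (1.05), miR-628-5p (1.04), miR-27b-3p (0.76) and miR-181a-5p (0.90), which were picked from the largest rises in the same wild-type libraries. That choice by itself favours a positive difference. Of 5 alternatives, the call was lost under 3 for miR-27b-3p, 2 each for let-7e-3p and let-7g-3p, and 1 for miR-181a-5p.

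One library lay far from the other 3 of its group in 8 of the 112 groups of 4 examined, where chance alone gives about 1 in 20. Of these, 6 were tail shares of LIN28A-OE replicate 1, which are largely measures of the same A tails. It had A tails on 9.07% of counts, a single A on 8.05%, AA or longer on 1.02%, other mixed tails on 0.824%, any tail on 12.8%, and A on 9.51% of 5p-arm counts. In parental cells, let-7g-3p in replicate 2 (3.55 CPM) lay above and miR-23b-3p in replicate 1 (4678 CPM) below the other 3 libraries.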

How the results depend on the processing

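The number of miRNAs that rose (25) was 43 with DESeq2, 47 with no filter, 55 with all 24 libraries in the fit, 10 with the miRDeep2 table, 58 at an adjusted p under 0.05, 1 in replicates 1 and 2 alone and 11 to 40 without 1 library. The number that fell (39) was 17 with the miRDeep2 table, 59 at 0.05, 17 in replicates 1 and 2 alone, 59 in replicates 3 and 4 alone and 29 to 56 without 1 library. The miRDeep2 table without its doubtful column gave 31 and 44. U tails rose on 1 miRNA, and on 0 with limma, 7 with the replicate block, 7 at 0.05, 0 in replicates 1 and 2 alone, 17 in replicates 3 and 4 alone and 1 to 17 without 1 library (17 without LIN28A-OE replicate 1, 3 without parental replicate 1). U tails fell on 5, and on 8 at a mean of at least 20 counts, 3 at 200, 0 with limma, 10 with the replicate block, 13 at 0.05, 0 in replicates 1 and 2 alone and 2 to 13 without 1 library (13 without LIN28A-OE replicate 1; 2 without LIN28A-OE replicate 2 or parental replicate 2 or 4; 3 without parental replicate 3). A tails rose on 2, and on 0 with limma, 4 with the replicate block, 7 in replicates 3 and 4 alone (where 3 fell) and 1 to 3 without 1 library (1 without LIN28A-OE replicate 2 or parental replicate 2 or 3). The genotype difference was more positive for 7 with mutant clone 1 only.

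With each miRNA weighted equally, the library differences reversed, to -0.128 points for U, 0.426 for A, 0.0238 for C and 0.651 for any tail. Without miR-21-5p they were 0.444 for U, 0.115 for A, -0.0105 for C and 0.837 for any tail, and without let-7 they were 0.0081, -0.303, -0.136 and -0.388. At the parental makeup the pooled let-7 differences turned to 0.123 for U and 0.579 for A. Without 1 library U ran from 0.0092 to 0.114, A from -0.538 to 0.121, C from -0.133 to -0.0813, any tail from -0.648 to 0.214, let-7 U from -0.817 to -0.734, let-7 A from -2.21 to -2.11 and the let-7 share from -5.92 to -5.58 points; an exact permutation test of 3 against 4 cannot go below p = 0.0571, which also holds for the let-7 share of -5.67 points in the miRDeep2 table without its doubtful column. Under the replicate block the C difference (-0.113), let-7 U (-0.779), let-7 A (-2.15) and the let-7 share (-5.78) had an exact sign-flip p = 0.125, the smallest it allows. The labels give the replicate numbers no shared source, and same-numbered libraries correlated at 0.56, 0.16, 0.13 and 0.02, not each best with its own number, so they were not treated as pairs; the replicate block gave 28 higher and 45 lower miRNAs and 19 more positive and 25 more negative genotype differences. LIN28A mRNA was called higher without each library in turn. Of the values of single miRNAs, 730 of 819 for abundance stayed on their side of the threshold, with 86 weaker and 3 stronger; for U tails it was 327 with 30 weaker, for A tails 301 with 5 weaker and 3 stronger, and for the genotype difference 101 with 9 weaker. Sign changes were found only among values that were not called, for U in 23 of 357, for A in 20 of 309 and for the genotype difference in 1 of 110. The miRDeep2 table was not run for the genotype difference, as its mutant columns could not be tied to clones. Depth limited the let-7 3p arms in LIN28A-OE, with as few as 0 counts for let-7g-3p. The cause of these shifts was not tested.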

Other observations

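A pair of abundant miRNAs outside the naming rule, chosen here after their values were seen, varied widely between LIN28A-OE passages. miR-7-5p was at 2344, 1019.8, 295 and 483 CPM in LIN28A-OE and 4735, 2602, 2972 and 3067 in parental cells, without overlap, but did not pass (edgeR log2 fold change -1.69 ± 0.50, adjusted p = 0.0383). miR-148a-3p was at 1141, 3296, 2602 and 2348 against 929, 1113, 1229 and 1155 (1.08 ± 0.25, adjusted p = 0.0103). In both, the first LIN28A-OE passage was the library nearest to the parental range.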
